A study of Mus musculus with 6 samples.

Results

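The proneural and neuronal transcription factors described here are 9 genes, Neurog1, Neurog2, Neurod1, Neurod4, Insm1, Myt1, Myt1l, Pax6 and Eomes, out of 23038 genes in the files. They were chosen by name, as factors of neuronal commitment, and each symbol was found once. Their RNA was measured in primary mouse oligodendrocyte precursor cells (mOPCs), the dividing glial cells from which myelinating oligodendrocytes (OLs) form. The question asked of them was whether their transcript levels differed between cells with and without a knockdown (KD) of Qk, which encodes the quaking RNA-binding proteins.

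The cells were purified by immunopanning from mouse embryos at embryonic day 14.5, and neither genotype nor strain is given in the sources used here. A group of 3 libraries came from cells given control siRNA (siNC), and a group of 3 from cells given Qk siRNA (siQk). All were harvested 72 h after the transfection. There were 3 different Qk siRNAs, and which of them each siQk library received is not stated. The cultures are called biological replicates in the labels, and whether they came from separate litters is not stated.

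The members fall into a few classes of DNA-binding proteins. Neurog1, Neurog2, Neurod1 and Neurod4 are basic helix-loop-helix (bHLH) factors that bind E-box sequences as dimers with E proteins, and in the embryo neurogenins switch on Neurod genes and Notch ligands in cells that leave the cell cycle to become neurons. Insm1, Myt1 and Myt1l are zinc finger proteins that act mostly as repressors in newborn neurons and endocrine cells, while Pax6 and Eomes are known for marking radial glia and intermediate progenitors of the developing cortex, and Myt1 is also known in oligodendrocyte precursors.

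RPKM is the number of tags of a gene scaled by exon length and library total, so that RPKM values can be compared between genes as well as between libraries. Library totals ran from 58166490 to 141045937 tags. The smallest, siNC replicate 1, also stood apart in its share of tags on the ribosomal RNA precursor Rn45s, 3.11% beside 0.169% to 0.389% in the other libraries. Qk itself stood at 163 to 209 RPKM in the siNC libraries and at 36.2 to 76.6 RPKM in the siQk libraries, so that 28.4% of its mean level remained. The log2 fold change of Qk, siQk over siNC, was -1.98 (SE 0.28, FDR = 0.00311 by edgeR's quasi-likelihood test). FDR is the Benjamini-Hochberg adjusted p over the genes tested, and genes are called changed here when P is under 0.01 and FDR under 0.1, the cutoffs used by the study. Of 12505 genes with an average log2 CPM (tags scaled to the library total alone) over 0, 31.0% were called changed, with 13.8% (1730 genes) higher in siQk and 17.2% (2149 genes) lower. This split depended on the scaling, with 2234 higher and 1785 lower after upper quartile normalization and 2989 higher and 1365 lower with library size alone, while Insm1 and Myt1 were called higher under each. Myelin markers (Mbp, Mog, Mag, Mobp and Cnp) summed to 809.8 to 1472 RPKM in siNC against 434 to 639.6 RPKM in siQk, where 4 of 5 were called lower, while OPC markers summed to 1023 to 1100 RPKM in siNC against 1217 to 1370 RPKM in siQk, where 3 of 8 were called higher and 1 lower. These sums are of RPKM scaled by library total alone. With the normalization factors of the test applied, the OPC marker sums of the groups overlapped. In RNA from whole cultures, fewer cells of a type and less RNA per cell cannot be told apart.

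Of the 9 transcription factors, 3 had enough counts to be tested (Insm1, Myt1 and Pax6), and Insm1 and Myt1 were called higher in siQk. That is 2 of 3 tested members, beside the 31.0% of all genes tested. Pax6 was not called, and all 3 had fold changes above 0 in every setting tried. The other 6 members lay under the filter, with no library above 0.336 RPKM. Their tag numbers were 0 to 116 in single libraries, so that they are described by their values and by a fit without the filter, which took in the 19223 genes with at least 1 tag in any library.

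**Figure D1:**
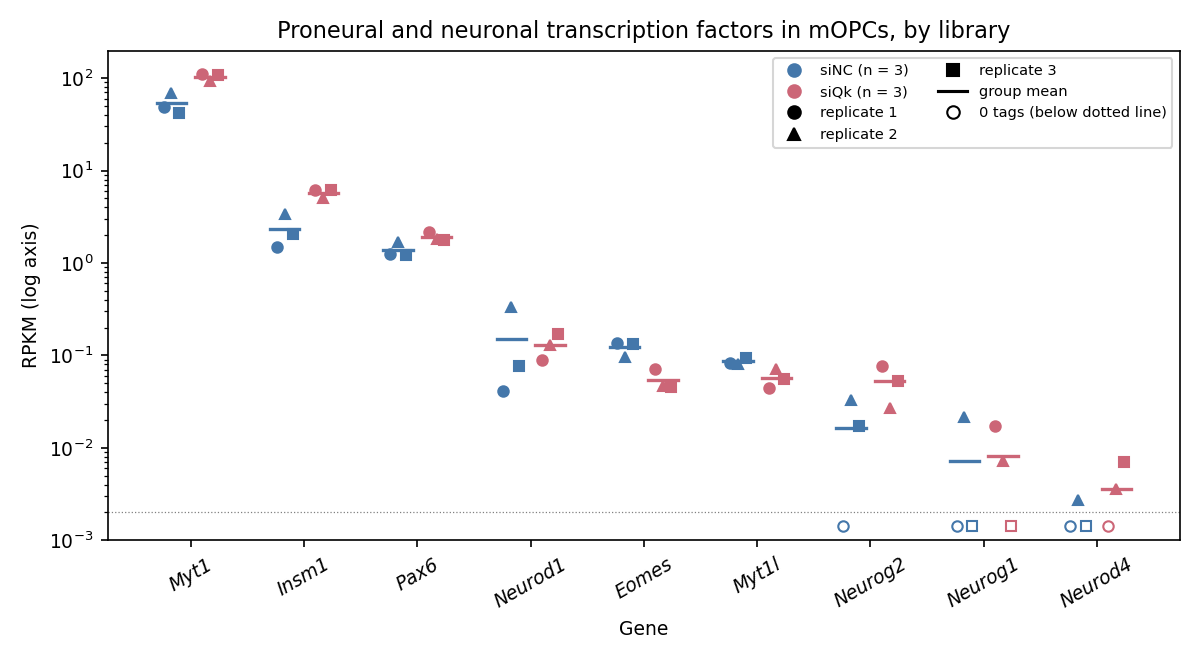
RPKM on a log axis of the 9 transcription factors in each of 3 siNC libraries (blue) and 3 siQk libraries (red), with the shape of a point giving the replicate, horizontal bars the group means, and open points below the dotted line libraries with 0 tags. Myt1 lies between 42.1 and 110.2 RPKM, Insm1 and Pax6 between 1.23 and 6.12 RPKM, and the other 6 genes at or below 0.336 RPKM.

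Myt1 (Entrez 17932) was by far the most abundant member. It lies on chromosome 2 (GRCm38, GENCODE M21, chr2:181763332-181827797, plus strand), with 12 annotated transcripts of up to 23 exons. Its zinc fingers recognise AAAGTT elements. Of the 9 members, 8 had promoter windows in RefSeq's table for GRCm38.p6, 16 windows in all, each cut here to the 250 bases before a transcription start. The 3 windows of Myt1 are shown because it is the member with most RNA and a called change, and the first window of its paralogue Myt1l because that gene differed in level by orders of magnitude. Sequences run 5' to 3' on the plus strand, with capitals marking CANNTG, the E-box core of bHLH factors.

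Myt1 start 1, chr2:181763082-181763331: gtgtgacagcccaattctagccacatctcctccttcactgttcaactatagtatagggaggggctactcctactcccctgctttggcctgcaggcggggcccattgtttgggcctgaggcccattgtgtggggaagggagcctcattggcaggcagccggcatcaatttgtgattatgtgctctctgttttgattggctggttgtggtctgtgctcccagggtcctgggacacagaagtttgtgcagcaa
Myt1 start 2, chr2:181766779-181767028: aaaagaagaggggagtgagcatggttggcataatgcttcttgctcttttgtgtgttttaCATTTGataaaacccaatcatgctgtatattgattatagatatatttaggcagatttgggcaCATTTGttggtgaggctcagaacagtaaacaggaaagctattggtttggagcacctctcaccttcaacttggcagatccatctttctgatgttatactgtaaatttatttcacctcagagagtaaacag
Myt1 start 3, chr2:181796057-181796306: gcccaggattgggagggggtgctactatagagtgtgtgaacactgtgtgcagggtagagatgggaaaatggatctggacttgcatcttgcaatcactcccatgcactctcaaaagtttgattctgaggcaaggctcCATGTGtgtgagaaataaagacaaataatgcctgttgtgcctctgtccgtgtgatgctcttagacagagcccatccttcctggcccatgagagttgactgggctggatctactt
Myt1l start 1, chr12:29528134-29528383: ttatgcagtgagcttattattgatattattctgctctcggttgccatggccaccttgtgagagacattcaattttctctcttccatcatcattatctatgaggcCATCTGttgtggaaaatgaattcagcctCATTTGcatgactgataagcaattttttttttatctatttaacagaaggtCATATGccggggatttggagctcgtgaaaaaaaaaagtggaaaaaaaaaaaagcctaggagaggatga

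The window at the first Myt1 start held 0 CANNTG matches, and the windows at starts 2 and 3 held 2 and 1. The first Myt1l window held 3. Over the 16 windows of the members, 8 held CANNTG, which is read the same on both strands, beside 66.2% of 32851 windows of all genes in the table. CAGATG is one of the forms of CANNTG and was searched on both strands. It was found in 3 member windows, all of Myt1l (starts 1, 2 and 5), and in 14.4% of all windows. AAAGTT, searched on both strands, was found in 3 member windows, those of Myt1 at start 3, Neurod1 at start 1 and Pax6 at start 1, and in 12.4% of all windows. These matches describe the letters only.

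In siNC replicates 1, 2 and 3, Myt1 stood at 48.6, 69.7 and 42.1 RPKM. In siQk replicates 1, 2 and 3 it stood at 110.2, 93.5 and 108 RPKM. All 3 siQk libraries were above all 3 siNC libraries, and siNC replicate 2 was the highest of the controls. Mean Myt1 was 53.5 ± 14.4 RPKM in siNC and rose to 104 ± 9.05 RPKM (SD, n = 3 each). On the TMM scale of the test the log2 fold change was 0.81 (SE 0.19, FDR = 0.0179 by edgeR's quasi-likelihood test), a rise of 1.75-fold. TMM factors were 0.899 to 0.987 for siNC and 1.04 to 1.07 for siQk, so that ratios of RPKM exceeded the fold changes of the test. The P of Myt1, 0.00404 by edgeR's quasi-likelihood test over all genes, was near the cutoff of 0.01. Its call was lost without siNC replicate 1, the library high in Rn45s (0.78, edgeR FDR = 0.0516), without siQk replicate 1 (0.76, edgeR FDR = 0.0638) and without siQk replicate 3 (0.77, edgeR FDR = 0.0527). The direction was the same in all 15 other settings, with log2 fold changes from 0.64 to 1.03. Counting error was small beside this spread, since Myt1 had 18078 to 99416 tags in a library.

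Insm1 (Entrez 53626), a zinc finger repressor needed for basal progenitors and endocrine cells, is a gene of 1 exon on the same chromosome (chr2:146221921-146225020, plus strand). Its level was 1.48, 3.38 and 2.08 RPKM in siNC replicates 1, 2 and 3. The siQk libraries held 6.09, 5.01 and 6.12 RPKM. The groups did not overlap, and as with Myt1 the highest control was siNC replicate 2 and the lowest siQk library was replicate 2. Mean Insm1 rose from 2.32 ± 0.970 to 5.74 ± 0.632 RPKM (SD, n = 3 each). Its log2 fold change was 1.16 (SE 0.27, FDR = 0.0175 by edgeR's quasi-likelihood test), a rise of 2.24-fold. Among all genes called higher, 13.4% had a fold change at least as large as that of Insm1, and 25.3% one at least as large as that of Myt1. The call of Insm1 was lost without siNC replicate 3 (1.07, edgeR FDR = 0.0450), without siQk replicate 1 (1.12, edgeR FDR = 0.0600) and without siQk replicate 3 (1.11, edgeR FDR = 0.0511), each time on P rather than on FDR. Over 15 other settings its log2 fold change ran from 0.96 to 1.53.

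Pax6 (Entrez 18508; chr2:105668900-105697364, plus strand), a paired box and homeobox factor of radial glia and eye, was the other member above the filter. It was found at 1.25, 1.68 and 1.23 RPKM in siNC and at 2.15, 1.80 and 1.79 RPKM in siQk. On the RPKM scale the groups were apart, but siNC replicate 2 lay close to the lower siQk libraries. With TMM factors applied, siNC replicate 2 (1.75 RPKM) exceeded siQk replicates 2 and 3 (1.69 and 1.71 RPKM), so that the groups overlapped. The mean was 1.39 ± 0.256 RPKM in siNC and 1.91 ± 0.208 RPKM in siQk (SD, n = 3 each). Pax6 was not called (log2 fold change 0.31, SE 0.16, FDR = 0.173 by edgeR's quasi-likelihood test), and it was not called in any of 15 other settings, which gave 0.21 to 0.46.

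The 3 tested members thus had RPKM ranges apart and higher in siQk, which held for 41.9% of all genes tested. Ranges were apart in either direction for 58.3% of the genes tested and apart and lower for 16.4%. On the TMM scale 2 of the 3, Myt1 and Insm1, stayed apart and higher, beside 27.8% of genes tested, with 54.4% apart in either direction and 26.5% apart and lower. An exact two-sided permutation test of 3 libraries against 3 cannot give a p below 0.1, and the permutation p was 0.1 for each of the 3.

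The zinc finger family of Myt1 has another 2 genes in the mouse, and their levels ran differently. Myt1l (Entrez 17933; chr12:29528384-29923213, plus strand), which is known for holding neuronal identity and is used to turn fibroblasts into neurons, was nearly silent. Its level was 0.0829, 0.0812 and 0.0941 RPKM in siNC and 0.0441, 0.0712 and 0.0550 RPKM in siQk, from 45 to 116 tags in a library. Every siQk library was below every siNC library, and the mean was 0.0861 ± 0.00700 RPKM in siNC and 0.0568 ± 0.0137 RPKM in siQk (SD, n = 3 each). In the fit without the filter its log2 fold change was -0.74 (SE 0.25, FDR = 0.0656 by edgeR's quasi-likelihood test), which missed the cutoff on P (0.0185 by edgeR's quasi-likelihood test over all genes). DESeq2's Wald test called it (-0.76, FDR = 0.0243), as did edgeR's likelihood ratio test (-0.74, FDR = 0.0311). Exons of Gm20208 on the opposite strand cover 633 bases of Myt1l exons, and since the library kit does not mark strand, tags of either gene cannot be told apart there. St18, the remaining gene of the family, is not one of the 9 members. Its mean fell from 3.68 ± 0.855 RPKM to 1.45 ± 0.255 RPKM, with 3 libraries and the SD behind each. The log2 fold change of St18 was -1.50 (SE 0.22, FDR = 0.00395 by edgeR's quasi-likelihood test) and it was called in all 15 other settings. Within a library the RPKM of Myt1 was 448 to 858 times that of Myt1l in siNC and 1312 to 2502 times in siQk.

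Eomes (Entrez 13813; chr9:118478212-118486132, plus strand), the T-box factor that marks intermediate progenitors of the cortex, was under the filter and was called lower in the fit without it. It had 0.136, 0.0972 and 0.134 RPKM in siNC and 0.0713, 0.0463 and 0.0454 RPKM in siQk. The tags behind these values were 33, 45 and 74 in siNC and 42, 16 and 24 in siQk. All siQk libraries lay below all siNC libraries, although the 95% Poisson intervals of siNC replicate 2 (0.0709 to 0.130 RPKM) and siQk replicate 1 (0.0514 to 0.0963 RPKM) overlapped. Mean Eomes was 0.122 ± 0.0218 RPKM in siNC and 0.0543 ± 0.0147 RPKM in siQk (SD, n = 3 each). Its log2 fold change was -1.27 (SE 0.32, FDR = 0.0217 by edgeR's quasi-likelihood test without the filter). The call was lost without siNC replicate 1 (-1.17) or 3 (-1.22) and without siQk replicate 2 (-1.17) or 3 (-1.16), with edgeR FDRs of 0.0488 to 0.0747. An antisense gene, Gm33460, shares 118 bases with Eomes exons.

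Without the filter, 3 of the 9 members were called (Insm1 and Myt1 higher, Eomes lower), beside 23.4% of all genes in that fit. Of those genes 11.0% were called higher and 12.4% lower. Of the 9 members 5 had RPKM ranges apart, beside 44.4% of genes, with Insm1, Myt1 and Pax6 higher (30.3% of genes) and Myt1l and Eomes lower (14.1% of genes). With TMM factors 4 members stayed apart, beside 42.1% of genes, with Insm1 and Myt1 higher (20.5% of genes) and Myt1l and Eomes lower (21.6% of genes). The 6 members under the filter had to be low in both groups to be there, so that their number says nothing about a difference.

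**Figure D2:**
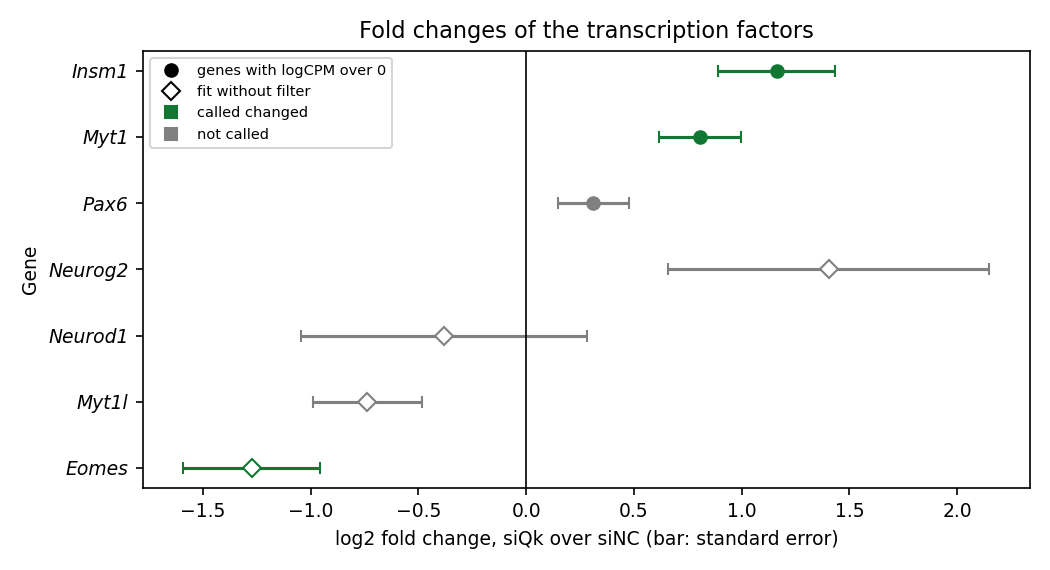
log2 fold changes, siQk over siNC, of 7 transcription factors on the horizontal axis with bars of 1 standard error, from the fit of genes over the filter (circles) or without the filter (open diamonds), in green where called changed and grey where not. Insm1 (1.16) and Myt1 (0.81) lie to the right of 0 and Eomes (-1.27) to the left, while Neurog2 (1.40) and Neurod1 (-0.38) carry the widest bars.

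Of the bHLH proneural members, Neurog1 and Neurod4 were at or near the limit of detection. Neurog2 and Neurod1 were low, with 0 to 24 and 6 to 93 tags in a library. Neurog2 (Entrez 11924; chr3:127633135-127635631, plus strand), which starts neuronal differentiation in the dorsal forebrain, had 0, 8 and 5 tags in siNC and 24, 5 and 15 tags in siQk. That is 0, 0.0326 and 0.0171 RPKM in siNC and 0.0768, 0.0273 and 0.0535 RPKM in siQk. siQk replicate 2 was below siNC replicate 2, so that the groups overlapped. Neurog2 was not called in the fit without the filter (log2 fold change 1.40, SE 0.75, FDR = 0.213 by edgeR's quasi-likelihood test) nor in any of 13 other settings, which gave 1.03 to 2.12. The 0 tags in siNC replicate 1 allow a level of up to 0.0233 RPKM, taken as 3 tags and covering counting error only.

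Neurog1 (Entrez 18014; chr13:56250478-56252163, minus strand), a neurogenin of sensory ganglia and ventral neural tube, had 0, 4 and 0 tags in siNC and 4, 1 and 0 tags in siQk. Its summed tags were 4 in siNC and 5 in siQk. Libraries with 0 tags allow up to 0.0310 RPKM in siNC replicate 1, 0.0136 RPKM in siNC replicate 3 and 0.0142 RPKM in siQk replicate 3. Neurod4 (Entrez 11923; chr10:130268152-130280240, minus strand), a factor of retinal and midbrain neurogenesis, had 0, 1 and 0 tags in siNC and 0, 1 and 3 tags in siQk. No library exceeded 3 tags, the level taken here as the floor, which stands for 0.00636 to 0.0154 RPKM of Neurod4. No difference in either gene was detectable at this depth.

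Neurod1 (Entrez 18012; chr2:79452521-79456751, minus strand), which drives terminal differentiation of neurons and of pancreatic beta cells, was the most abundant of the 4 bHLH members and the most uneven among the controls. It stood at 0.0414, 0.336 and 0.0759 RPKM in siNC and at 0.0881, 0.131 and 0.171 RPKM in siQk. siNC replicate 2 was the highest of all 6 libraries and held 93 of the 124 siNC tags, while the other controls were the lowest of the 6. The mean was 0.151 ± 0.161 RPKM in siNC and 0.130 ± 0.0415 RPKM in siQk (SD, n = 3 each). In the fit without the filter the log2 fold change was -0.38 (SE 0.66, FDR = 0.700 by edgeR's quasi-likelihood test). Without siNC replicate 2 it was 0.94 (edgeR FDR = 0.178), so that the direction turned without this 1 library. Cerkl, whose exons share 201 bases with those of Neurod1 on the same strand, had a like pattern, with 0.0520, 0.382 and 0.0801 RPKM in siNC and 0.122, 0.110 and 0.151 RPKM in siQk. How the counting split tags over these shared bases is not given in the sources used here, so that the level of Neurod1 is uncertain to that degree.

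The order of levels was Myt1, then Insm1, then Pax6 in all 6 libraries, and Myt1 made up 92.1% to 94.2% of the summed RPKM of the 9 members. In siNC the ranges of Insm1 (1.48 to 3.38 RPKM) and Pax6 (1.23 to 1.68 RPKM) overlapped, and in siQk they did not (5.01 to 6.12 against 1.79 to 2.15 RPKM). Insm1 was 1.19, 2.01 and 1.69 times Pax6 in siNC and 2.83, 2.79 and 3.43 times Pax6 in siQk. Myt1 was 32.7, 20.6 and 20.2 times Insm1 in siNC and 18.1, 18.7 and 17.6 times Insm1 in siQk, with no overlap between the groups. Below Pax6, Neurod1 overlapped with Eomes and Myt1l in siNC, and Eomes, Myt1l and Neurog2 overlapped with each other in siQk. Neurog1 and Neurod4 were the lowest by group mean, and their ranges overlapped in both groups.

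**Figure D3:**
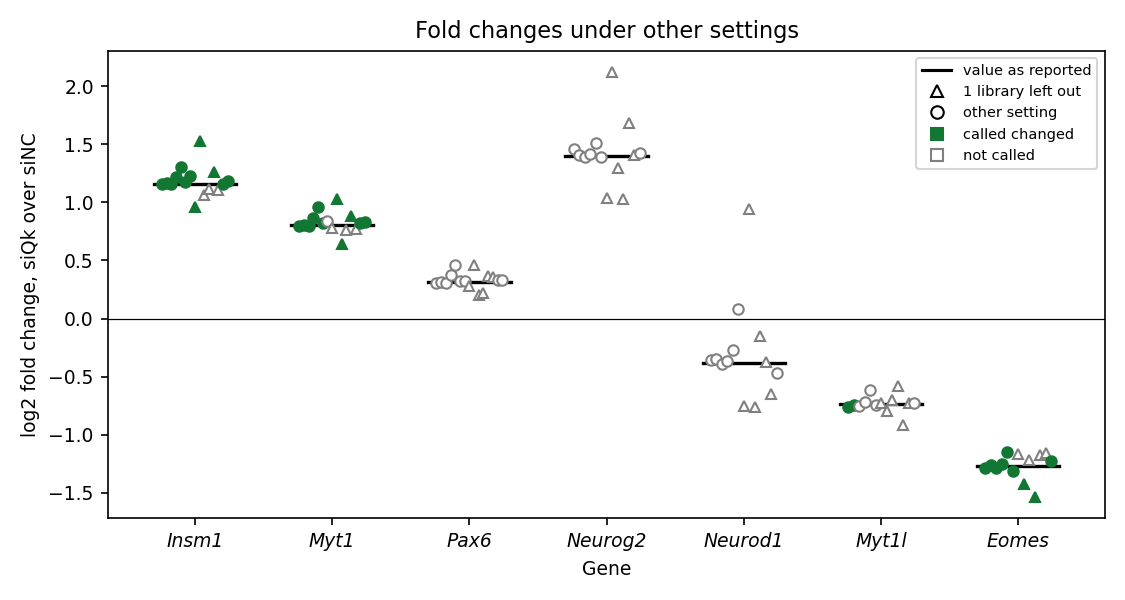
log2 fold changes, siQk over siNC, of 7 transcription factors under each alternative setting, with black bars for the values as reported, triangles for fits that leave out 1 library, circles for the other settings, filled green where called changed and open grey where not. Insm1 (0.96 to 1.53), Myt1 (0.64 to 1.03) and Pax6 (0.21 to 0.46) stayed above 0 and Eomes (-1.53 to -1.15) and Myt1l (-0.91 to -0.58) below 0 in every setting drawn, while Neurod1 crossed 0.

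Among all genes tested, the profiles most like Insm1 and Myt1 were sought as the smallest root mean square difference of log2 CPM, centred per gene, over the 6 libraries. For Insm1 these were Pdgfrl (0.152), Col4a2 (0.167) and Igfbp5 (0.168), where the median over all genes was 0.709. Pdgfrl (log2 fold change 1.20) and Igfbp5 (1.11) were called higher, and Col4a2 (1.14) was not. For Myt1 they were Tigd3 (0.0721), Col4a1 (0.0766) and Atp10d (0.0772), all called higher with log2 fold changes of 0.85, 0.87 and 0.78, and the median over all genes was 0.498. The difference between Insm1 and Myt1 was 0.302, which placed Myt1 at rank 77 in the order for Insm1. These distances are a description over 6 libraries of 1 contrast.

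A list of 30 other transcription factors of neuronal commitment and subtype was set beside the members. Of them 15 were tested, 4 were called higher, 1 lower and 10 not called, a share of 33.3% called beside 31.0% of all genes, and the median log2 fold change was 0.38 beside 0.010 for all genes tested. Scrt1, a zinc finger repressor of newborn neurons, rose from a mean of 0.232 RPKM (SD 0.0825) to 1.14 RPKM (SD 0.484), a log2 fold change of 2.15 (SE 0.38, FDR = 0.00711 by edgeR's quasi-likelihood test). Bcl11b, a factor of corticospinal neurons and T cells, rose by 1.31 on the log2 scale from 0.543 to 1.50 RPKM. Ebf2 (1.24), a helix-loop-helix factor of the Ebf family, and the LIM homeobox gene Isl2 (0.45) were the other 2 called higher, and St18, given above, was the one called lower. Ebf2 lost its call without siNC replicate 2 or 3 or siQk replicate 1 or 3 (0.97 to 1.24), and Isl2 without siNC replicate 1 or 2 or siQk replicate 1 or 2 (0.41 to 0.46). The count of 5 became 8 without siNC replicate 2 and 3 without siQk replicate 1. The 15 untested genes, among them Neurog3, Neurod2, Neurod6 and Atoh1, had at most 0.213 RPKM in any library. Of these, Isl1 had 9, 12 and 14 tags in siNC and 87, 21 and 87 tags in siQk, its RPKM ranges apart and higher. Tbr1 was apart and lower, with a mean of 0.127 RPKM in siNC and 0.0765 RPKM in siQk. In the fit without the filter the count of 5 became 7, beside 23.4% of all genes called in that fit.

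**Figure D4:**
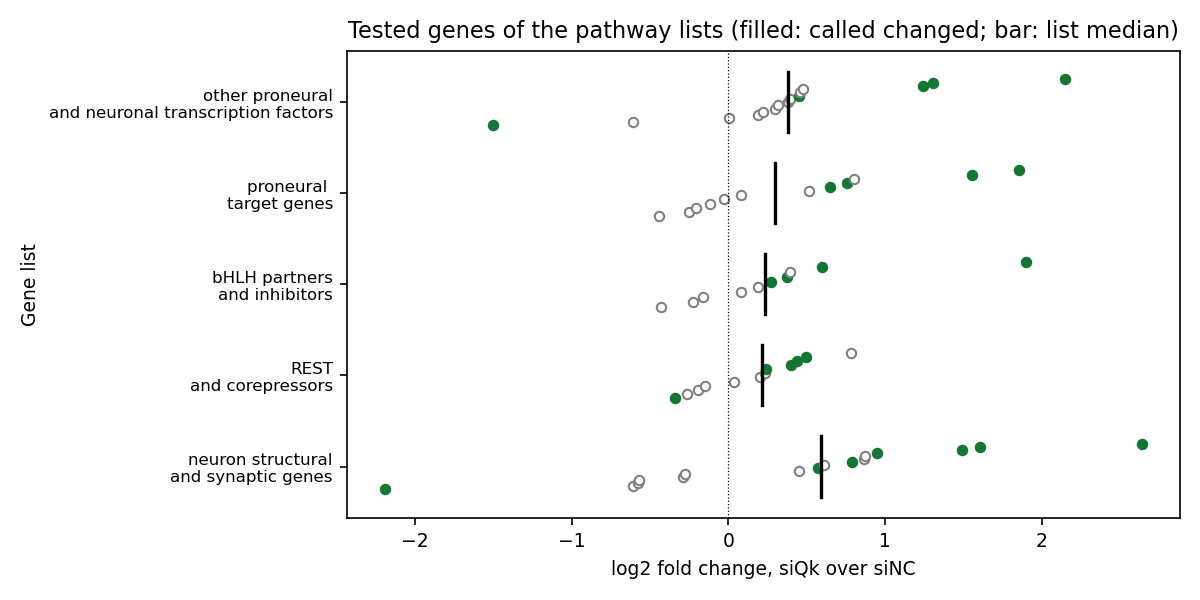
log2 fold changes, siQk over siNC, of the tested genes in 5 lists on the horizontal axis, 1 row per list, with filled green points for genes called changed, open points for genes not called, a vertical bar for the list median and a dotted line at 0. List medians lie between 0.22 and 0.59, and the highest and lowest genes are Snap25 (2.64) and Gad2 (-2.19) among the neuronal structural genes.

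Genes known to be switched on by proneural factors were taken as a second list of 13, of which 12 were tested. Of these 4 were called higher and 8 were not called (33.3% called beside 31.0% of all genes, median log2 fold change 0.30). Dll3 rose the most, from 4.64, 3.19 and 3.59 RPKM in siNC to 16.3, 13.2 and 16.4 RPKM in siQk (log2 fold change 1.86, SE 0.19, FDR = 0.00122 by edgeR's quasi-likelihood test). Dll1 had 15.5, 19.3 and 15.4 RPKM in siNC and 53.8, 56.3 and 53.4 RPKM in siQk (log2 fold change 1.55, SE 0.097, FDR = 0.000396 by edgeR's quasi-likelihood test). Both encode proteins of the Delta-like family, and in both every siQk library was above every siNC library. Cdk5r1, the activator of the neuronal kinase Cdk5, rose by 0.76 and the antiproliferative gene Btg2 by 0.65 on the log2 scale. Btg2 lost its call without siQk replicate 1 (0.56) or 2 (0.65). Dcx, a microtubule protein of migrating neuroblasts, stood at 6.66, 14.2 and 8.19 RPKM in siNC and at 17.8, 20.9 and 17.5 RPKM in siQk, the groups being apart, and was not called (0.81, FDR = 0.0460 by edgeR's quasi-likelihood test, which missed the cutoff on P). Sox11 (0.51) and Rnd3 (0.08) were also above 0 and not called. Below 0 and not called were Rnd2 (-0.44), Sox4 (-0.25), Gadd45g (-0.21), Mfng (-0.12) and Hes6 (-0.03). Rnd2 was the most abundant gene of the list, with a mean of 617 RPKM in siNC.

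The partners and inhibitors of bHLH factors, 11 genes with 10 tested, had 4 called higher and 6 not called. That is 40.0% called beside 31.0% of all genes, with a median log2 fold change of 0.23. Hes5, a Notch-dependent repressor of proneural genes, rose from 22.0, 27.2 and 19.7 RPKM in siNC to 94.7, 91.9 and 98.6 RPKM in siQk, a log2 fold change of 1.90 (SE 0.13, FDR = 0.000446 by edgeR's quasi-likelihood test). Hes1 (-0.43, FDR = 0.0459 by edgeR's quasi-likelihood test, which missed the cutoff on P), Hey2 (-0.22) and Hey1 (-0.16) were below 0 and not called. Id2 (0.08), Id3 (0.19) and Id4 (0.39) were above 0 and not called. The 3 E proteins with which the bHLH members pair were all called higher, Tcf4 by 0.60, Tcf12 by 0.37 and Tcf3 by 0.27 on the log2 scale. Mean Tcf4 was 63.6 RPKM in siNC and 107 RPKM in siQk. The fold changes of these 3 were above 0 in all 15 other settings. Tcf12 lost its call when any library but siQk replicate 2 was left out (0.30 to 0.38), and Tcf3 without siQk replicate 1 (0.26) or 2 (0.27). The list count of 4 became 2 without siQk replicate 1.

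REST silences neuronal genes in other cells, and Insm1 binds some of the same corepressors. The list of Rest and its corepressors had 12 genes, all tested, with 4 higher and 1 lower. That is 41.7% called beside 31.0% of all genes, with a median log2 fold change of 0.22. Rest itself stood at 4.92, 4.83 and 6.06 RPKM in siNC and at 5.11, 5.53 and 4.72 RPKM in siQk. Its groups overlapped, and it was not called (log2 fold change -0.19, SE 0.10, FDR = 0.177 by edgeR's quasi-likelihood test). Rcor1 (0.50), Hdac2 (0.44), Hdac1 (0.40) and Sin3a (0.24) were higher and Rcor3 (-0.34) was lower. The call of Hdac2 held in all 15 other fits at these cutoffs. The others were lost with single libraries left out, Rcor1 without siNC replicate 1 or 2 or siQk replicate 1 or 2 (0.42 to 0.49), Hdac1 without siNC replicate 1 or any siQk replicate (0.37 to 0.42), Sin3a without siQk replicate 1 (0.23) or 2 (0.24), and Rcor3 without siQk replicate 1 or 2 (-0.33 each). Rcor3 also lost its call with library size as the only scaling (-0.19, edgeR FDR = 0.144), which moves the median of all genes to 0.16. The count of 5 became 3 without siNC replicate 1 and 1 without siQk replicate 1 or 2.

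**Figure D5:**
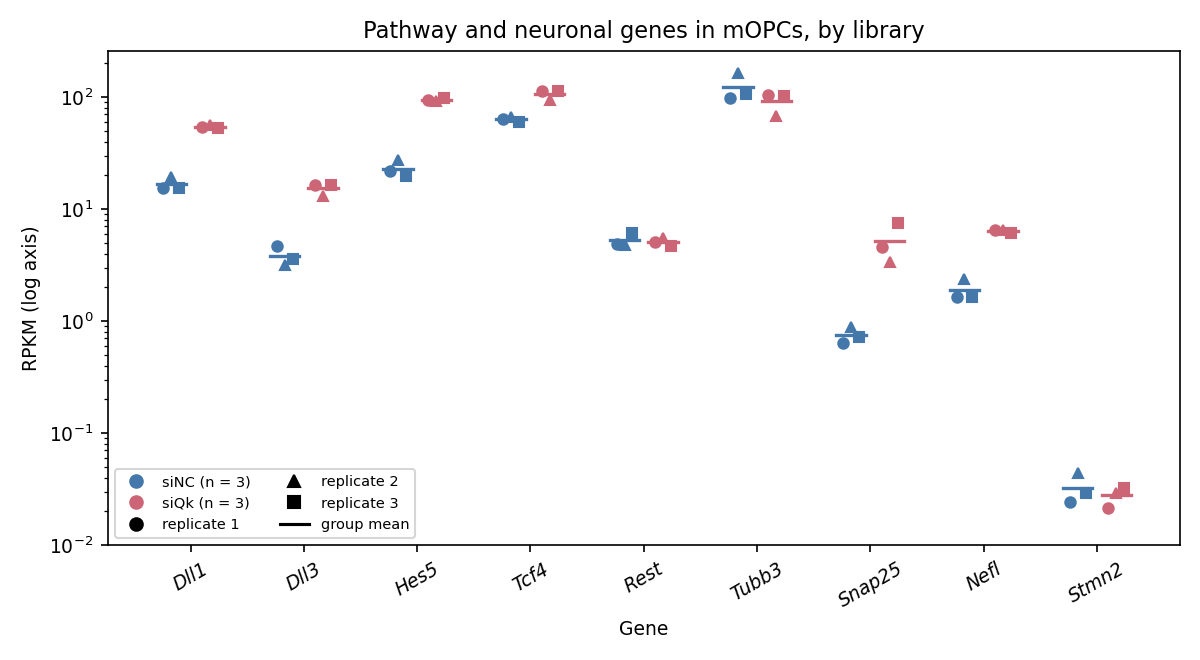
RPKM on a log axis of 9 genes of the lists in 3 siNC libraries (blue) and 3 siQk libraries (red), with the shape of a point giving the replicate and horizontal bars the group means. Dll1, Dll3, Hes5, Tcf4, Snap25 and Nefl are apart and higher in siQk, Rest and Tubb3 overlap, and Stmn2 lies at 0.0216 to 0.0439 RPKM.

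Genes that differentiated neurons use for structure and synapses were the last list, 20 genes with 16 tested. Of them 6 were called higher and 1 lower, a share of 43.8% called beside 31.0% of all genes. The median log2 fold change was 0.59 beside 0.010 for all genes tested. The count of 7 became 10 without siNC replicate 2 and 5 without siNC replicate 3. Snap25, a SNARE protein of synaptic vesicle fusion, had 0.641, 0.886 and 0.725 RPKM in siNC and 4.63, 3.35 and 7.57 RPKM in siQk (log2 fold change 2.64, SE 0.32, FDR = 0.00211 by edgeR's quasi-likelihood test). The intermediate filament genes Nefl and Ina rose by 1.61 and 1.49 and the RNA-binding gene Elavl2 by 0.95 on the log2 scale, each called in all 15 other fits at these cutoffs. Gad2, which makes GABA, fell by 2.19 on the log2 scale, from 0.269 to 0.0653 RPKM, and was called in the 14 settings that tested it. Tubb3 had 97.6, 166 and 106 RPKM in siNC beside 104, 68.4 and 103 RPKM in siQk, the groups overlapping, and was not called (log2 fold change -0.57, SE 0.24, FDR = 0.104 by edgeR's quasi-likelihood test). Elavl3 (-0.61), Rbfox3 (-0.57), Mapt (-0.29) and Gap43 (-0.27) were also below 0 and not called. Above 0 and not called were Syt1 (0.87), Nefm (0.86), Elavl4 (0.61) and Gad1 (0.45). Stmn2, abundant in neurons, had 7, 24 and 19 tags in siNC and 15, 12 and 20 tags in siQk, at most 0.0439 RPKM.

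Markers of the other cell types that a culture could hold were set beside these results. Of 8 neuron markers 5 were tested, with Gad2 called lower and the other 4 not called. Their summed level was 7.56 to 13.5 RPKM in siNC and 15.6 to 18.7 RPKM in siQk, mostly Elavl4, with Slc17a6 at 0 tags in all 6 libraries. Among the controls, siNC replicate 2 had the highest neuron and microglia marker sums, as it had the highest Myt1, Insm1, Pax6 and Neurod1. Among the siQk libraries, replicate 1 had the highest neuron marker sum (18.7 RPKM) and the highest Myt1 and Pax6. The lowest neuron marker sum of the siQk libraries (15.6 RPKM) was in replicate 3, which had the highest Insm1 and Neurod1 of them. Neural progenitor markers summed to 2430 to 2776 RPKM in siNC against 3662 to 4001 RPKM in siQk, with 2 of 5 called higher and 1 lower. Mean Fabp7 alone rose by more than the mean of this sum, with 955 to 1453 RPKM in siNC and 2550 to 2952 RPKM in siQk. Vim fell from 976 to 1596 RPKM in siNC to 645 to 847 RPKM in siQk, and Nes and Sox2 were not called. Astrocyte markers summed to 97.1 to 156 RPKM in siNC against 30.7 to 34.0 RPKM in siQk, with 4 of 6 called lower. Microglia markers summed to 0.721 to 3.32 RPKM in siNC and 0.308 to 0.407 RPKM in siQk (P2ry12, the only 1 of 6 tested, called lower, with Cx3cr1 and Tmem119 at 3 tags or fewer in every library), and fibroblast and vascular markers to 0.147 to 0.297 and 0.222 to 0.271 RPKM. In RPKM, the neuron, neural progenitor and OPC sums were higher in siQk, as Myt1 and Insm1 were. The myelin, astrocyte and microglia sums were lower in siQk. With TMM factors applied the OPC sums of the groups overlapped. What part these sums had in the results was not tested.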

How the data were processed

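Polyadenylated RNA of 6 mOPC libraries was sequenced as 75-nt paired-end reads. OLego alignments to mm10 were counted per gene with Quantas by the authors, with versions and gene annotation not given in the sources used here. For each gene the authors deposited an expected count of tags, without normalization, its exon length, and an RPKM value. Groups came from the labels.

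Expected counts were rounded and tested in R 4.3.3 with edgeR 4.0.16 (glmQLFit and glmQLFTest, beside limma 3.58.1), with TMM factors and the group as the only term, on genes with an average logCPM over 0. Spread is the SD over 3 libraries. With 58166490 tags or more per library, 3 tags was taken as the floor, and 95% Poisson intervals cover counting error only. No 2 libraries of a group differed by as little as sampling noise (chi-square per degree of freedom 44.7 or more). Where replicates do not come from separate animals, p-values measure only the spread between these cultures. Spread within siQk may also hold differences between the 3 Qk siRNAs, since which library received which is not stated. The numbers of replicates did not pair the libraries (correlations of same-numbered deviations -0.053, -0.15 and -0.34). Map2 was matched by Entrez identifier, all others by symbol. Positions and overlaps are from GENCODE M21 (GRCm38, the assembly of mm10).

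The genes named were Qk, the 9 members, up to 4 called genes per direction in each list, the genes that define a list, the 3 profiles most like each called member, and markers. Dcx and the other uncalled genes named among the proneural targets and the bHLH partners and inhibitors fall outside that rule. So do the untested genes named in the lists and the uncalled neuronal structural genes, other than Stmn2 and Tubb3. They were singled out after their values were seen. Members and lists were chosen with earlier results of these data known. The alternatives were DESeq2 1.42.0, edgeR's likelihood ratio test, other normalizations and filters, a replicate block, each library left out, a stricter cutoff and thinning to the smallest library. The scripts for edgeR were tested on simulated data. Some genes that the rule and the marker lists give are not reported here. Isoforms and exons were not analysed here.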

Additional observations from a re-analysis of the deposited data

How the results depend on the processing

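Over 32 genes (the members given a fold change and all list genes called), 471 fold changes were computed under other settings: 415 kept their direction and their side of the cutoff, 52 kept the direction and lost the call, 2 gained a call (Myt1l) and 2 reversed. Both reversals were of Neurod1, to 0.080 with a replicate block and to 0.94 without siNC replicate 2, with fits without 1 library from -0.76 to 0.94. The count of 2 changed members was 0 to 2 with 1 library left out (0 without siQk replicate 1 or 3, 1 without siNC replicate 1 or 3) and 1 under the stricter cutoff, which asked for FDR under 0.05 and a change of 1 or more on the log2 scale.

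With a replicate block 2796 genes were called changed, 2701 of them shared with the 3879 called without it. The block left 1 changed member, since Myt1 lost its call (0.84, FDR = 0.0466 by edgeR's quasi-likelihood test), and 1 changed gene among Rest and its corepressors, where Rcor1, Rcor3, Hdac1 and Sin3a lost theirs. It also ended the calls of Isl2 (0.45), Btg2 (0.66), Tcf12 (0.37) and the synaptic gene Syp (0.80), with edgeR FDRs of 0.0470 to 0.0625. As the numbers did not pair the libraries, this is no measure of a weaker effect.

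Leaving out 1 library gave 2478 (without siQk replicate 1) to 3704 changed genes and 1008 to 1610 higher in siQk (1008 and 1104 without siQk replicate 1 or 2). For the lists it gave 3 to 8 other transcription factors, 2 to 4 bHLH partners and inhibitors, and 1 to 7 of Rest and its corepressors. Under the stricter cutoff 946 genes were changed, 326 higher and 620 lower, with 2 proneural targets, 1 bHLH partner or inhibitor, 0 of Rest and its corepressors, and 4 neuronal structural genes. Library size as the only scaling moved the median of all genes to 0.16 and gave 2989 genes higher and 1365 lower, and 8 other transcription factors. The cause was not tested. Depth limits the bHLH members, most of all Neurog1 and Neurod4, which had at most 4 tags in a library, and least Neurod1, which had 6 to 93.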
